A study of Mus musculus with 8 samples.

Results

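The 10 genes described here encode the fibrils and elastic fibres of connective tissue matrix in the mouse: the fibrillar collagen chains Col1a1, Col1a2, Col3a1, Col5a1 and Col5a2, the crosslinking enzymes Lox and Loxl1, the microfibril and elastic fibre genes Fbn1 and Fbln2, and fibronectin, Fn1. They were chosen by symbol, through the Ensembl gene IDs of the count tables, and are 10 of 54446 genes listed there. They and the gene lists below were chosen with earlier results of these data known. The shares of all tested genes set beside them are thus a description and no test of the members. All 10 passed the filter on low counts, as did 21782 genes in all.

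Nuclear RNA was measured in C57BL/6 mouse embryonic stem cells, kept in serum with LIF and the inhibitors CHIR99021 and PD0325901, in 4 groups of 2 libraries. In the Mettl14 line there was a Control and a CKO group, and likewise in the Mettl3 line, CKO being the labels' name for the knockout. All 8 libraries share strain, medium and protocol, and each CKO is compared with the Control of its own line. METTL3 and METTL14 form the complex that writes N6-methyladenosine on RNA. The sources used here do not give the alleles, the deleted exons, the time after deletion, the number of clones or whether the cells grew on a feeder layer of fibroblasts.

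Fibrillar collagens are made as procollagen chains that wind into a triple helix, are trimmed outside the cell and pack into fibrils. Type I collagen is built from Col1a1 and Col1a2 chains, type III from Col3a1, and type V, which sets fibril diameter, from Col5a1 and Col5a2. LOX and LOXL1 oxidise lysines so that collagen and elastin can be crosslinked, FBN1 builds the microfibrils on which elastin is laid down, FBLN2 binds to fibrillin and fibronectin, and FN1 carries an RGD site to which integrins bind. Fibroblasts are the classical source of the fibrillar collagens, while naive stem cells are known for pluripotency factors rather than for interstitial matrix.

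The 5 collagen chains share a coding feature, a glycine codon at the start of each triplet of codons, which lets the chains pack into a helix. In GENCODE M21 transcripts the longest unbroken run held 338 repeats of 9 bases in Col1a1, 339 in Col1a2, 344 in Col3a1, 338 in Col5a1 and 339 in Col5a2, against 1 to 4 in the other members. The first 63 bases of each run are shown, 5′ to 3′, with the glycine codon (GGN) that starts each triplet of codons in capitals and any other glycine codon in lower case, because the chains differ between these codons and the reads of one chain can be told from those of another:
Col1a1: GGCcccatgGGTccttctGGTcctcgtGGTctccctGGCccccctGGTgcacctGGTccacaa
Col1a2: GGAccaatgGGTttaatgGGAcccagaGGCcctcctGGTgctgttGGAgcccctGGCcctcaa
Col3a1: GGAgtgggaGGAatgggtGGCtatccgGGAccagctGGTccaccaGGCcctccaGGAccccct
Col5a1: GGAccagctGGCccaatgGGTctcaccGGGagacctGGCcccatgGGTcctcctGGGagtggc
Col5a2: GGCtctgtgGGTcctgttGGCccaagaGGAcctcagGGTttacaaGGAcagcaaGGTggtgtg
No stretch of at least 50 bases at 95% identity or more was shared by the transcripts of Col1a1, Col1a2, Col5a2, Lox, Loxl1 or Fbln2 with any other gene. In Fbn1 2442 bases, 20.4% of its transcript, also belong to the gene Gm9913 on the opposite strand, which had at most 11 counts in any library. Shared stretches in Col3a1, Col5a1 and Fn1 covered 2.53, 3.28 and 2.99% of their transcripts.

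RefSeq promoter windows (GRCm38.p6, 250 bases before to 50 after the start site) matched 5 of 10 members. Those of Col1a2 (chr6:4505368-4505667, plus strand), Fbln2 (chr6:91212514-91212813, plus strand) and Col3a1 (chr1:45311288-45311587, plus strand) are printed, since Col1a2 and Fbln2 had the highest fold changes in Mettl14 CKO and Col3a1 was the member with a fall in Mettl3 CKO. Capitals mark matches, on either strand, to TATAAA (the TATA box), CCAAT (bound by NF-Y), GGGCGG (bound by SP1), TGANTCA (bound by AP-1), GGAATG (bound by TEAD factors) and CACCTG (an E-box):
Col1a2: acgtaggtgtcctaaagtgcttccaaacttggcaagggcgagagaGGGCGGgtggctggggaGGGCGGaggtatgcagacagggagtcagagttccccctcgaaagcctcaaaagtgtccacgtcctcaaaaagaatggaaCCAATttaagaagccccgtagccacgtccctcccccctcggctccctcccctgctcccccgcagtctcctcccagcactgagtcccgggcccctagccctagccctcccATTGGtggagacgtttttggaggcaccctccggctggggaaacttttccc
Fbln2: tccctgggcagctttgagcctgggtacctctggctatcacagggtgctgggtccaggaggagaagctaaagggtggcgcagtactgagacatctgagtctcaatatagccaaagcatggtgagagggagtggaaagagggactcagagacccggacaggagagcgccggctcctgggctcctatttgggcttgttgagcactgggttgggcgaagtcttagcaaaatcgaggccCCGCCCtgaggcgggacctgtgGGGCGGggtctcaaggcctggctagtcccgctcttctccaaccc
Col3a1: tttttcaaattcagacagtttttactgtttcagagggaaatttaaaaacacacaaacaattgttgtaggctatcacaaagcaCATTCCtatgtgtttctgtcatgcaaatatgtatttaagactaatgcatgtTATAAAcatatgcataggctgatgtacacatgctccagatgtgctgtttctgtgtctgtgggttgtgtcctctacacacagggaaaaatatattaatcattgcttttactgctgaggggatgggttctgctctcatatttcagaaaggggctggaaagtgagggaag
Col1a2 held 2 CCAAT and 2 GGGCGG matches, Fbln2 2 GGGCGG matches, and Col3a1 1 TATAAA match and 1 GGAATG match. The TATAAA match of Col3a1 lay at -117 from the start site, and whether it works as a TATA box was not tested. GGGCGG occurred in 4 of the 5 windows, Col3a1 being without it, and in 35.7% of 32851 promoters of this length. CCAAT occurred in 1 of 5 and in 37.4% of all, TATAAA in 1 of 5 and in 13.6%, GGAATG in 1 of 5 and in 14.7%. TGANTCA and CACCTG were in 0 of the 5, and in 7.81 and 20.2% of all promoters. No matches overlapped each other, and no motif occurred in all of the 5 windows. The letters GGACT, a sequence often methylated by METTL3 and METTL14, occurred 3 to 14 times per longest coding transcript, or 0.72 (Col3a1) to 1.67 (Col5a1) times per kb, beside a median of 1.01 over 21901 coding genes.

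Total counts ran from 17235889 to 20086128 per library. The labels do not tell whether the replicates were separate cultures, and the p-values reflect no more than the spread within these pairs of libraries. That spread may be technical, and the test draws each gene's spread partly from that of all tested genes. Levels are given in CPM, the counts scaled to library size. Of the targeted genes, Mettl14 had 55.0 and 58.3 CPM in its Control and 27.8 and 30.2 in its CKO, and Mettl3 had 36.1 and 37.9 CPM in its Control and 18.6 and 19.8 in its CKO. In the Mettl3 line Mettl14 stood at 26.7 to 30.1 CPM, the level of Mettl14 CKO, so Mettl14 Control stood apart from the other 3 groups for this gene (0.99 ± 0.07 on the log2 scale above Mettl3 Control). Mettl3 stood at 40.2 to 44.4 CPM in the Mettl14 line. A gene was called where the adjusted p of edgeR's quasi-likelihood test (Benjamini-Hochberg over 21782 genes) was under 0.05, and log2 fold changes are given ± SE.

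In Mettl14 CKO all 10 members rose, by 1.23-fold (Fn1) to 2.96-fold (Fbln2), where 18% of all tested genes rose. Of the 10, 7 rose at least 2-fold, against 4.75% of all tested genes and 2.24% of the 10099 whose mean log2 CPM was 3 or more. The median log2 fold change of the members was 1.24, against 0.03 over all tested genes. No member's libraries overlapped between the groups, as was so for 34.8% of all tested genes in this direction. In bulk RNA, more cells of a type and more RNA per cell cannot be told apart.

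Among the collagen chains, Col1a2 (ENSMUSG00000029661.16, chromosome 6, 4504814 to 4541544 in mm10, plus strand) stood at 184.1 and 184.6 CPM in the Mettl14 Control libraries and at 539.4 and 531.1 in Mettl14 CKO. Both CKO libraries were far above both controls, a rise of 1.54 ± 0.03 on the log2 scale (adjusted p = 1.45e-89). Its partner in type I collagen, Col1a1 (ENSMUSG00000001506.10, chromosome 11, 94936224 to 94953042, plus strand), stood at 274 and 265.9 CPM in control and at 335.5 and 339.7 in CKO. The groups again did not overlap, but the rise was only 0.32 ± 0.03 (adjusted p = 1.48e-22), and 31.4% of all tested genes had a higher log2 fold change. Col3a1 (ENSMUSG00000026043.18, chromosome 1, 45311538 to 45349706, plus strand) had the lowest level per length of the 5 chains. It stood at 32.19 and 34.09 CPM in control and 63.35 and 63.29 in CKO. It rose by 0.93 ± 0.06.

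Both type V chains rose, with no overlap between the groups. Col5a1 (ENSMUSG00000026837.15, chromosome 2, 27886425 to 28039514, plus strand) went from 114.1 and 112.9 CPM in Mettl14 Control to 270.4 and 275.1 in Mettl14 CKO, a log2 change of 1.26 ± 0.03 (adjusted p = 7.09e-72). Col5a2 (ENSMUSG00000026042.16, chromosome 1, 45374321 to 45503282, minus strand) went from 247.3 and 236.2 to 625 and 625.8 CPM, a log2 change of 1.37 ± 0.03 (adjusted p = 4.49e-85). Col5a2 lies tail to tail with Col3a1, with 24614 bases between them, and the difference between their changes was not tested.

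Of the crosslinking enzymes, Lox (ENSMUSG00000024529.13, chromosome 18, 52516067 to 52529867, minus strand) stood at 132.9 and 139.2 CPM in control and 322.4 and 323.2 in CKO, with no overlap. It rose by 1.25 ± 0.03 (adjusted p = 1.86e-72). Loxl1 (ENSMUSG00000032334.10, chromosome 9, 58287738 to 58313186, minus strand) had the lowest level per length of the members. It stood at 3.456 and 4.332 CPM in control and 9.097 and 9.248 in CKO. With 54 and 69 counts in the control libraries, its rise of 1.23 ± 0.15 (adjusted p = 2.82e-12) was the least precise of the 10.

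The elastic fibre genes rose as well. Fbn1 (ENSMUSG00000027204.13, chromosome 2, 125300594 to 125507993, minus strand) went from 101.2 and 91.15 CPM in Mettl14 Control to 209.9 and 214.1 in Mettl14 CKO, a rise of 1.14 ± 0.04 (adjusted p = 1.88e-60). Fbln2 (ENSMUSG00000064080.12, chromosome 6, 91212455 to 91272540, plus strand) went from 97.02 and 95.54 to 284.4 and 284.7 CPM, the highest rise of the members at 1.56 ± 0.03 (adjusted p = 1.86e-81). Fn1 (ENSMUSG00000026193.15, chromosome 1, 71585520 to 71653200, minus strand) had the highest level per length in every group and the smallest rise, from 2472 and 2495 CPM to 3052 and 3054, a rise of 0.30 ± 0.02 (adjusted p = 1.34e-28). So 8 members rose by 1.91-fold to 2.96-fold, and Col1a1 and Fn1 by 1.25-fold and 1.23-fold.

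**Figure D1:**
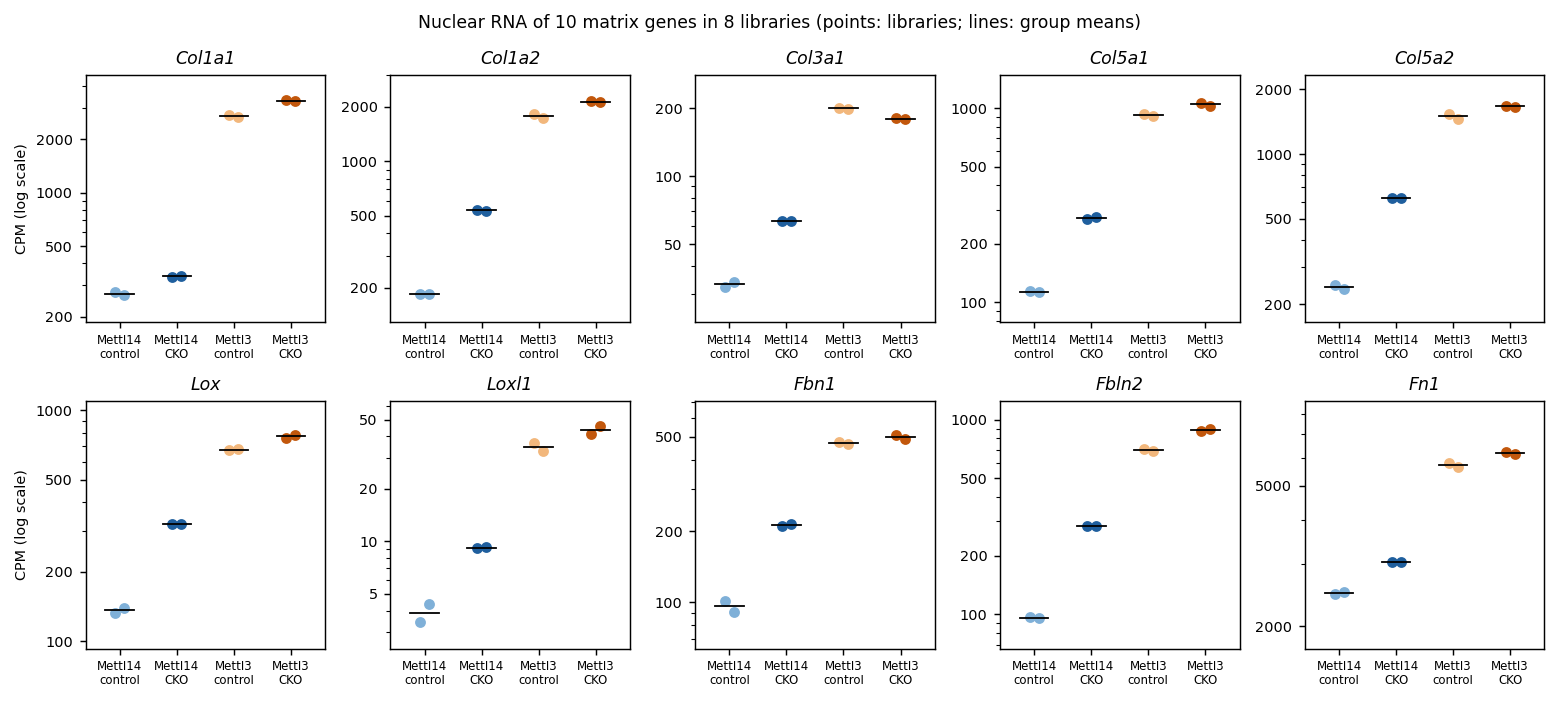
Level of each of the 10 matrix genes in CPM on a log axis; points are the 2 libraries of a group and lines are group means. In each panel Mettl14 Control is lowest, Mettl14 CKO lies between it and the Mettl3 line, and Col1a1 and Fn1 show the smallest step between the Mettl14 groups.

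In Mettl3 CKO the largest rise was 1.27-fold. Of the members 9 rose and 1 fell, where 15.1% of all tested genes rose and 5.78% fell. These shares are over genes of all levels, while the members' mean log2 CPM was 4.58 (Loxl1) to 12.09 (Fn1). Small changes are called more readily at high counts, and the shares among abundant genes alone are not given here. The libraries of all 10 members were separate between the groups, as were those of 32.5% of all tested genes in the upward and 24.2% in the downward direction. The median log2 fold change of the members was 0.19, against 0.03 over all tested genes. With upper-quartile scaling, which lowered the fold changes of all genes by a median of 0.11 on the log2 scale, 6 members rose and 1 fell, and the calls over all genes changed from 3292 higher and 1260 lower to 1293 higher and 2771 lower.

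Fbln2 stood at 705 and 692.2 CPM in Mettl3 Control and 877.3 and 891.5 in Mettl3 CKO, a rise of 0.34 ± 0.03 (adjusted p = 1.06e-24). Col1a1, at 2743 and 2670 CPM in control and 3309 and 3279 in CKO, rose by 0.28 ± 0.02. Col1a2, at 1837 and 1742 against 2160 and 2121 CPM, rose by 0.26 ± 0.02, a rise like that of its partner. Loxl1, at 36.78 and 33.15 against 41.55 and 45.75 CPM, rose by 0.32 ± 0.07, and Lox, at 675.3 and 678.4 against 760.6 and 785.6 CPM, by 0.19 ± 0.03. Both enzymes were separate between the groups. Col5a1, at 933.9 and 911.1 against 1065 and 1027 CPM, rose by 0.18 ± 0.02, and Col5a2, at 1537 and 1464 against 1676 and 1658 CPM, by 0.15 ± 0.02.

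Col3a1 went the other way in Mettl3 CKO. It had 201.2 and 198.9 CPM in Mettl3 Control and 180.9 and 178.3 in Mettl3 CKO, both CKO libraries below both controls, and fell by 0.16 ± 0.04 (edgeR's test, adjusted p = 0.00026). Leaving out Mettl3 CKO replicate 2 ended the call (-0.10, adjusted p = 0.0909), as did fitting without the filter on low counts (-0.05, adjusted p = 0.556; range over all alternatives 2.82e-10 to 0.556). Fbn1, at 477.6 and 468.8 against 507.6 and 492.4 CPM, had a log2 fold change of 0.08 ± 0.03 and Fn1, at 5797 and 5675 against 6226 and 6180 CPM, one of 0.11 ± 0.02. Both were called (adjusted p = 0.0268 and 1.53e-06), but with upper-quartile scaling both were at or below 0 (-0.03 and -6.13e-05) and not called, so their direction is uncertain. Col5a2 lost its call with the same scaling (0.04, adjusted p = 0.242).

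**Figure D2:**
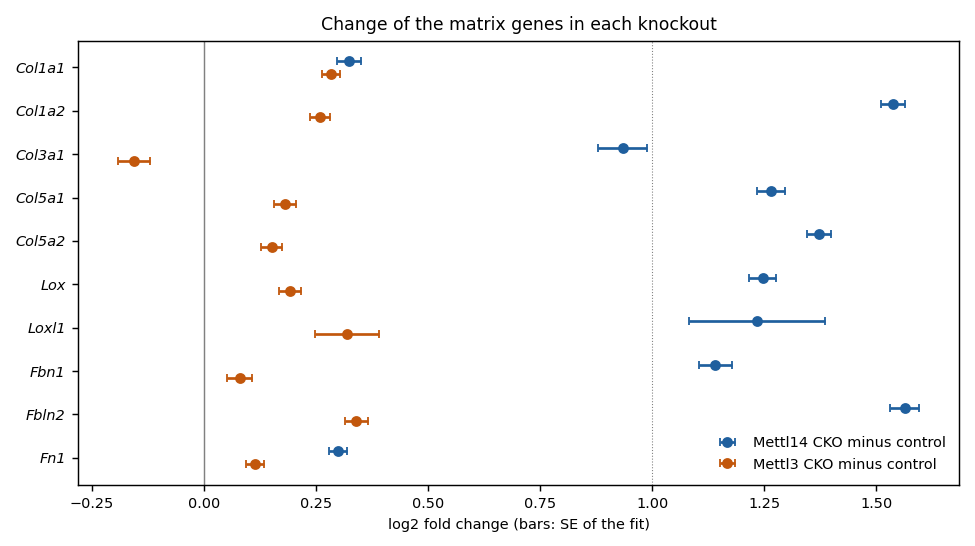
Log2 fold change of each matrix gene in Mettl14 CKO and in Mettl3 CKO, each against its own Control; bars are SE and the dotted line marks 2-fold. In the Mettl14 line 7 genes lie beyond 2-fold, while in the Mettl3 line all 10 lie between -0.16 and 0.34.

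The changes in the 2 knockouts differed for 9 of 10 members, all higher for Mettl14, where the difference was called higher for 12.7% of all tested genes and lower for 20.5%. With upper-quartile scaling, which raised this difference by a median of 0.16 over all genes, these calls changed from 2777 higher and 4461 lower to 4287 and 2788. The difference was 1.28 ± 0.04 for Col1a2, 1.22 ± 0.04 for Fbln2 and for Col5a2, and 0.18 ± 0.03 for Fn1. Fn1 lost its call without the filter on low counts (0.08, adjusted p = 0.0886; range over all alternatives 4.18e-22 to 0.0886). For Col1a1 the difference was 0.04 ± 0.03 (edgeR's test, adjusted p = 0.391), with a range of -0.07 to 0.20 over the alternatives. Its sign and its call changed among them.

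The members differed more between the control lines than in either knockout. All 10 were lower in Mettl14 Control than in Mettl3 Control, where 34.1% of all tested genes were lower and 33.6% higher, and all 10 by at least 2-fold, against 21.4% of all tested genes. Their libraries did not overlap, as was so for 44.2% of all tested genes in this direction. These comparisons share the Mettl14 Control libraries with the knockout comparison above. Col1a1 was 10-fold higher in Mettl3 Control (log2 difference 3.33 ± 0.03), Col1a2 9.71-fold, Loxl1 8.96-fold, Col5a1 8.12-fold and Fbln2 7.26-fold. Col5a2 was 6.21-fold higher, Col3a1 6.04-fold, Lox 4.98-fold, Fbn1 4.92-fold and Fn1 2.31-fold. Together the members took 0.305 and 0.307% of all counts in Mettl14 Control, 0.550 and 0.551% in Mettl14 CKO, 1.70 and 1.67% in Mettl3 Control and 1.81 and 1.79% in Mettl3 CKO. Those shares are of unscaled counts, without the TMM factors, so their ratios between groups differ from the ratios of CPM. Upper-quartile scaling moved the contrast between the control lines by a median of -0.22 over all genes. It split the calls into 5642 higher and 9450 lower, in place of 7329 and 7430. All 10 members were still lower.

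Levels of different genes were compared per length, in RPKM (CPM per kb of the merged length of annotated exons). Fn1 had the highest RPKM in all 4 groups, at 212.5 ± 1.39 (SD, n = 2) in Mettl14 Control and 490.9 ± 7.38 in Mettl3 Control. Col1a1 came second in Mettl14 Control (41.1 ± 0.875), followed by Lox (28.5 ± 0.944), Col5a2 (25.2 ± 0.821), Fbln2 (15.1 ± 0.164), Col1a2 (14.8 ± 0.028), Col5a1 (13.4 ± 0.098), Fbn1 (7.93 ± 0.585), Col3a1 (3.38 ± 0.137) and Loxl1 (1.18 ± 0.188). No neighbours in that order overlapped. In Mettl14 CKO, Lox (67.5 ± 0.117) and Col5a2 (65.2 ± 0.053) stood above Col1a1 (51.4 ± 0.459). In Mettl3 Control, Col1a2 and Lox overlapped (144 ± 5.36 and 141.7 ± 0.448), as did Fbln2 and Col5a1 (109.7 ± 1.43 and 108.7 ± 1.901), and in Mettl3 CKO Col5a2 and Col1a2 did (173.8 ± 1.33 and 172.3 ± 2.18). Fbn1, Col3a1 and Loxl1 were the lowest, in that order, in all 4 groups. The order depends on the length used: with the longest coding transcript, Col1a2 (34.5) stood ahead of Lox (28.7) in Mettl14 Control. In Mettl14 CKO that length put Col1a2 (100.1) next after Fn1, followed by Col5a2 (94.4), Lox (68.1), Fbln2 (59.45) and Col1a1 (56.9).

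The ratio of Col1a1 to Col1a2 set Mettl14 CKO apart from the other groups. It was 2.82 and 2.73 in Mettl14 Control, 2.83 and 2.90 in Mettl3 Control and 2.90 and 2.93 in Mettl3 CKO, but 1.18 and 1.21 in Mettl14 CKO. The 6 libraries of the other groups thus lay within a narrow range although Col1a1 itself differed 10-fold between the control lines. With the length of the longest coding transcript in place of the merged exon length, an alternative chosen after the data were seen, the group means were 1.32, 1.36 and 1.39, and 0.569 in Mettl14 CKO. The ratio was not tested; an exact permutation test of 2 libraries against 2 cannot go below p = 0.333 (two-sided).

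Other ratios moved differently. Col5a2 to Col5a1 was 1.92 and 1.85 in Mettl14 Control, 2.05 and 2.01 in its CKO, against 1.46 and 1.42 in Mettl3 Control and 1.39 and 1.43 in Mettl3 CKO. It differed between the lines and by little within them. Lox to Loxl1 was 26.5 and 22.2 in Mettl14 Control, 24.5 and 24.1 in Mettl14 CKO and 11.9 to 14.1 in the Mettl3 line. Fn1 to Col1a2 was 14.3 and 14.4 in Mettl14 Control, 6.02 and 6.11 in Mettl14 CKO, 3.36 and 3.46 in Mettl3 Control and 3.07 and 3.10 in Mettl3 CKO. With the longest coding transcript its means were 8.66, 3.67, 2.06 and 1.86 in these groups, and those of Col5a2 to Col5a1 were 2.70, 2.91, 2.06 and 2.02.

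**Figure D3:**
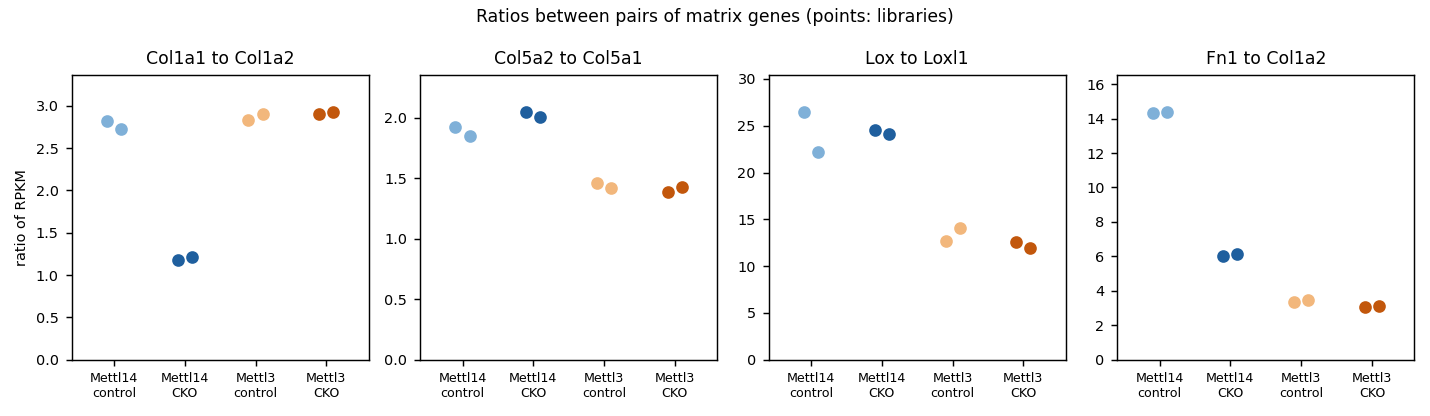
Ratios of RPKM for 4 pairs of matrix genes, 1 point per library, on axes that start at 0. Col1a1 to Col1a2 lies between 2.73 and 2.93 in 3 groups and at 1.18 and 1.21 in Mettl14 CKO.

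Genes whose pattern over the 8 libraries lay nearest the median pattern of the members were sought among 10099 abundant genes (mean log2 CPM of 3 or more), by the root mean square difference of centred log2 CPM. Nearest were Fat4 (0.039), an atypical cadherin gene, Tnc (0.043), which encodes the matrix protein tenascin C, the cytokine gene Csf1 (0.053), Col12a1 (0.071), a fibril-associated collagen, Parm1 (0.071) and Timp2 (0.073), an inhibitor of matrix metalloproteinases. Among the members themselves Col5a2 was nearest (0.107) and Col1a1 (0.638) and Fn1 (0.651) were farthest. The 8 libraries fall into 4 groups, so these likenesses rest on few independent points.

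Genes that work on or beside these members are described by counts, which are read against 18% of all tested genes that rose and 22.4% that fell in Mettl14 CKO. Of the enzymes and chaperones that fold and modify collagen in the endoplasmic reticulum, 15 of 17 rose and 0 fell (median 0.65). Examples are Serpinh1, the collagen chaperone HSP47 (0.83 ± 0.03), and P4hb, a subunit of prolyl 4-hydroxylase (0.71 ± 0.02). Of the procollagen proteinases and their enhancers 5 of 8 rose and 0 fell, including Bmp1, which removes the C-propeptide (1.31 ± 0.09), and Pcolce2 (0.53 ± 0.07). All 3 other lysyl oxidases rose, Loxl4 by 1.25 ± 0.12 and Loxl2 by 0.81 ± 0.08. Of the 6 remaining fibrillar chains 3 rose and 0 fell, with Col27a1 higher by 0.71 ± 0.11 and Col11a1 by 0.55 ± 0.05, and of 7 fibril-associated, microfibrillar and network chains 5 rose and 0 fell, with Col12a1 higher by 1.16 ± 0.03 and Col8a1 by 0.77 ± 0.05.

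Elastic fibre and microfibril genes were mixed in Mettl14 CKO, with 8 of 14 higher and 2 lower. Ltbp2, a fibrillin-binding protein gene, rose by 1.63 ± 0.05 and Fbln5, which takes part in elastic fibre assembly, by 1.02 ± 0.10. The 2 that fell, named after their values were seen, were Ltbp4 (-0.25) and Fbln1 (-0.21). All 10 tested genes for matricellular proteins and small proteoglycans rose, Lum being below the filter, with Tnc higher by 1.39 ± 0.03 and Thbs1 by 1.11 ± 0.02. Of 10 receptors for collagen and fibronectin 8 rose and 0 fell, among them the integrin genes Itgb1 (0.58 ± 0.02) and Itga5 (0.47 ± 0.04). Of 9 metalloproteinases and inhibitors 8 rose and 0 fell, among them Timp2 (1.44 ± 0.04) and Timp3 (0.96 ± 0.03). In the TGF-beta pathway, which induces many matrix genes in fibroblasts, 5 of 10 rose and 2 fell: Tgfbr2 rose by 0.92 ± 0.09, Smad4 fell by 0.56 ± 0.06, and Smad7, an inhibitor of the pathway, named after its value was seen, fell by 0.39.

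In Mettl3 CKO the same lists, read against 15.1% of all tested genes that rose and 5.78% that fell, had medians of 0.02 to 0.20. Of the folding genes 10 of 17 rose and 0 fell (median 0.13), Serpinh1 by 0.23 ± 0.03 and Crtap by 0.33 ± 0.05. Of the matricellular list 8 of 10 rose and 0 fell, Bgn by 0.35 ± 0.04 and Ccn2 by 0.25 ± 0.03. The largest rise in that list, named after its value was seen, was that of Fmod, a small proteoglycan gene, by 0.92 ± 0.21 from 2.83 to 3.49 CPM in control to 5.95 to 6.08 in CKO. All 3 other lysyl oxidases rose (median 0.17), but Loxl2 (0.17 ± 0.05) lost its call with upper-quartile scaling (0.06, adjusted p = 0.512), with DESeq2 (0.188), without Mettl3 CKO replicate 1 (0.119) and under 2 other settings. Elastic fibre genes rose in 5 of 14 cases, among them Ltbp3 (0.34 ± 0.07) and Ltbp2 (0.30 ± 0.03), and TGF-beta genes in 5 of 10, among them Smad7 (0.29 ± 0.04) and Tgfb2 (0.25 ± 0.05). Of the metalloproteinases and inhibitors 5 of 9 rose, Timp2 by 0.23 ± 0.03 and Mmp14 by 0.18 ± 0.04, the latter not called with upper-quartile scaling (0.06, adjusted p = 0.215). The largest rises in that list, named after their values were seen, were those of the low-count collagenase and stromelysin genes Mmp13 (0.71 ± 0.17) and Mmp3 (0.94 ± 0.21), at no more than 9.22 and 6.67 CPM. Proteinases rose in 2 of 8 cases, Bmp1 (0.24 ± 0.05) and Pcolce2 (0.24 ± 0.08), and other fibrillar chains in 2 of 6, Col27a1 (0.45 ± 0.09) and Col2a1 (0.34 ± 0.11). Pcolce2 lost its call in 6 of 16 alternatives, with adjusted p up to 0.305 (upper-quartile scaling), among them DESeq2 (0.145) and leaving out Mettl3 Control replicate 1 (0.0564) or Mettl3 CKO replicate 1 (0.05). Col2a1 lost it with upper-quartile scaling (0.142), with DESeq2 (0.163) and without Mettl3 CKO replicate 1 (0.0609), and Bmp1 with upper-quartile scaling (0.0512). Of the receptors 3 of 10 rose, Ddr1 by 0.38 ± 0.05 and Itgav by 0.15 ± 0.03 among them, though Itgav was not called with upper-quartile scaling (0.04, adjusted p = 0.416), and Sdc4, named after its value was seen, fell by 0.14. Of the 7 fibril-associated chains Col14a1, named after its value was seen, fell by 0.86, and Col12a1 was called at 0.07 ± 0.02 but stood at -0.04 with upper-quartile scaling.

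**Figure D4:**
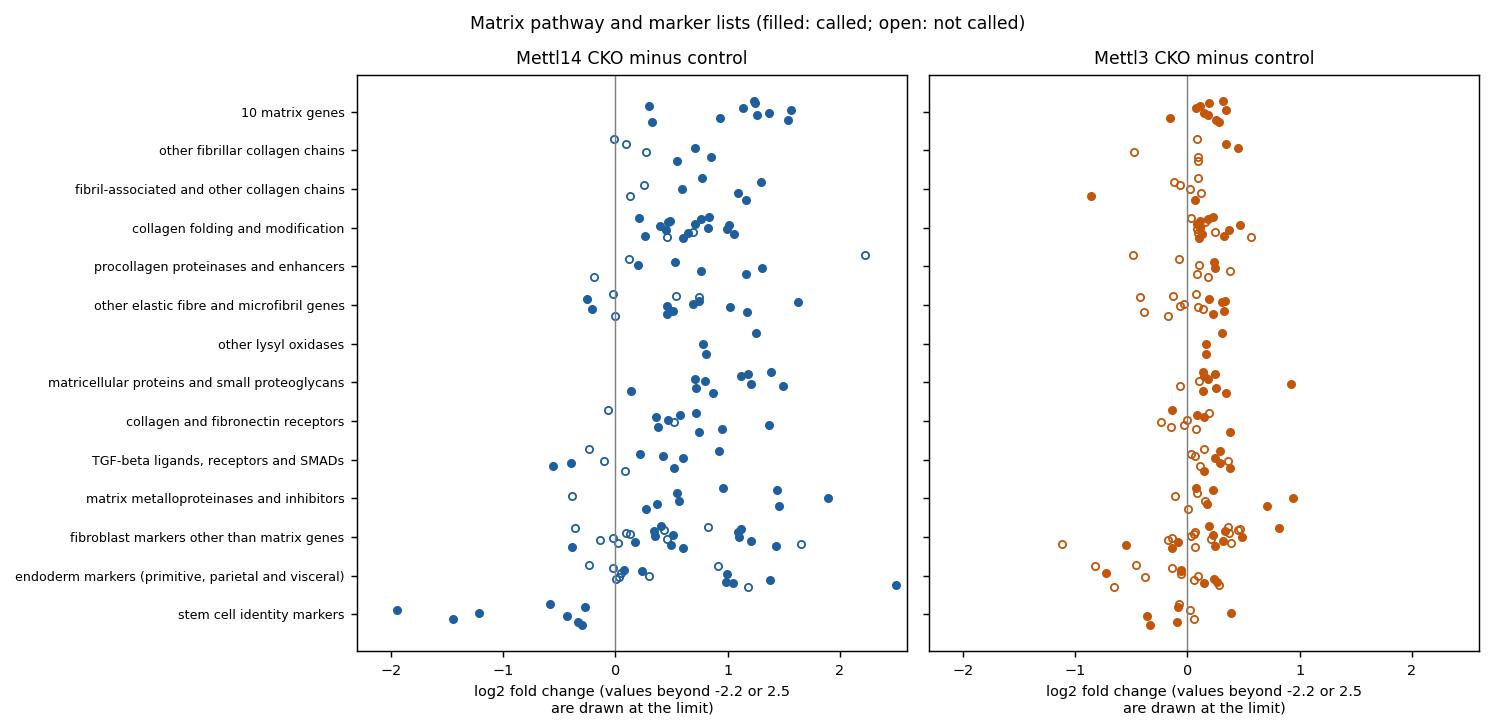
Log2 fold change of each tested gene of 14 lists in Mettl14 CKO and in Mettl3 CKO. Filled points were called and open points were not, and values beyond the limits given on the axis are drawn at the limit. In Mettl14 CKO the collagen folding list lies wholly to the right of 0 and the stem cell identity list wholly to the left.

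Markers of other cell types were read in the same libraries. The 24 fibroblast markers that are not matrix genes, of which 23 were tested, had a summed level of 1958 to 1989 CPM in Mettl14 Control, 2303 to 2342 in Mettl14 CKO, 3064 to 3164 in Mettl3 Control and 3287 to 3290 in Mettl3 CKO. In Mettl14 CKO 12 of 23 rose and 1 fell (median 0.43), where 18% of all tested genes rose and 22.4% fell. Cald1, named after its value was seen, fell by 0.39. Among the markers that rose were Tagln (1.09 ± 0.06) and Vim (0.41 ± 0.02). Between the controls 19 were lower and 2 higher in Mettl14 Control, where 34.1% of all tested genes were lower and 33.6% higher. In Mettl3 CKO 7 rose and 3 fell (median 0.21), where 15.1% of all tested genes rose and 5.78% fell. The 3 that fell, named after their values were seen, were Cnn1, Acta2 and Fstl1. Pdgfrb, a mesenchymal growth factor receptor, was higher by 0.49 ± 0.05. Named after their values were seen, Pdgfrb had 20.1 and 21.97 CPM in the Mettl14 Control libraries, 45.15 and 45.31 in their CKO, 73.76 and 75.77 in the Mettl3 Control libraries and 106.7 and 103.1 in theirs. Pdgfra, another such receptor, lay between 5.81 and 7.91 CPM in all libraries and was not called in either knockout. Twist1 lay between 3.88 and 7.97 CPM, was not called in Mettl14 CKO (-0.36) and rose by 0.82 in Mettl3 CKO. The markers Thy1, S100a4 and Fap, also named after their values were seen, were low, at 0.83 to 4.96, 0.77 to 2.18 and 0.06 to 1.06 CPM. No marker of this list was at 0 in both libraries of any group. The summed fibroblast markers stood in the same order of groups as the members, and their part in the members' differences was not tested.

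The 8 stem cell identity markers moved in the opposite order, with summed levels of 3000 to 3007 CPM in Mettl14 Control, 2050 to 2060 in Mettl14 CKO, 1138 to 1143 in Mettl3 Control and 1078 to 1080 in Mettl3 CKO. All 8 fell in Mettl14 CKO, where 22.4% of all tested genes fell and 18% rose. Pou5f1 fell by 1.22 ± 0.03 and Klf4 by 1.45 ± 0.04, and all 8 markers were present in every library. In Mettl3 CKO 4 fell, Dppa5a by 0.34 ± 0.04 among them, and Pou5f1 rose by 0.39 ± 0.04. In that comparison 5.78% of all tested genes fell and 15.1% rose. Of the endoderm markers 7 of 15 tested rose in Mettl14 CKO and 0 fell, with summed levels of 2034 to 2037 CPM in Mettl14 Control, 2389 to 2393 in Mettl14 CKO and 2666 to 2727 in the Mettl3 line. The basement membrane chains Col4a1 (1.05 ± 0.03) and Col4a2 (0.98 ± 0.04), which fibroblasts also express, were among those that rose. The others, named after their values were seen, were Cubn (1.38 ± 0.16), Hnf4a (1.00 ± 0.32), Lamb1 (0.24 ± 0.03), Lamc1 (0.07 ± 0.02) and Amn. Amn, which encodes the cubilin partner amnionless, had 0 counts in both Mettl14 Control libraries, 13 and 9 in Mettl14 CKO and 13 to 17 in the Mettl3 line. The regulators Gata4, Gata6, Sox17 and Sox7, also named after their values were seen, had at most 3.98 CPM in any library and were not called in either knockout. Ttr and Apoa1, likewise named after their values were seen and below the filter, were at 0 in both Mettl14 Control libraries. In Mettl3 CKO 3 of the 15 endoderm markers rose and 2 fell (median -0.06). Lama1 (-0.72 ± 0.05) was among those that fell and Col4a2 (0.27 ± 0.03) among those that rose. Of 7 mesoderm markers tested 0 rose and 1 fell in Mettl14 CKO, Eomes (-0.34 ± 0.10). Their summed level was 18 to 29.6 CPM over all libraries. In Mettl3 CKO Eomes rose by 0.39 ± 0.12, a call lost with upper-quartile scaling (adjusted p = 0.0884), with DESeq2 (0.0806), without Mettl3 Control replicate 2 (0.099) and without Mettl3 CKO replicate 1 (0.119). The part of these cell types in the members' differences was not tested.

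**Figure D5:**
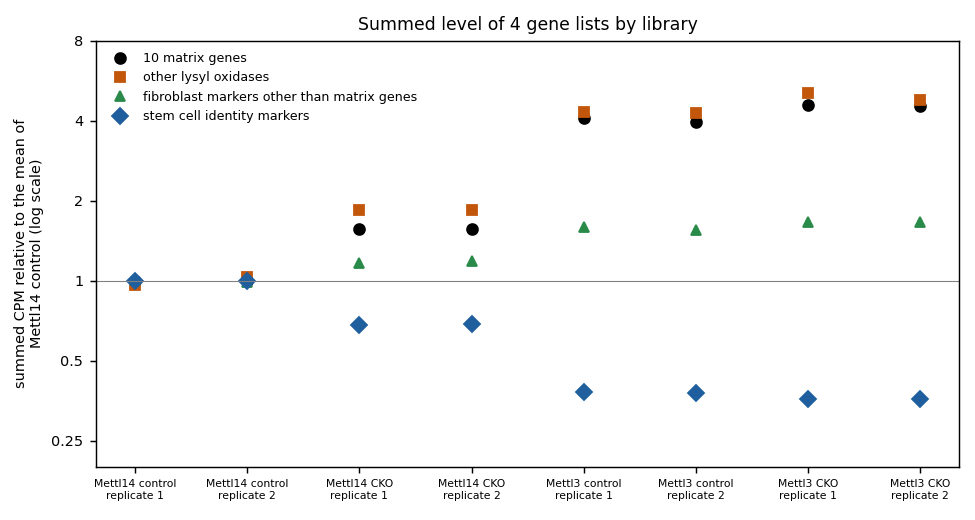
Summed CPM of 4 gene lists in each library relative to the mean of Mettl14 Control, on a log axis. The 10 matrix genes stand at 1.56 in both Mettl14 CKO libraries and at 3.97 to 4.59 in the Mettl3 line, the fibroblast markers at 1.17 to 1.67 in these libraries and the stem cell identity markers at 0.686 or less.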

How the data were processed

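Each sample has a table of raw gene counts deposited by the authors. The tools named are Trimmomatic 0.38, HISAT2 2.1.0, HTSeq and CASAVA, with the build mm10, per the submitters' processing notes. Per the labels' protocols, nuclear RNA was freed of ribosomal RNA (RiboMinus) and made into SMARTer Stranded libraries (v2). The sources used here do not give the annotation release or HTSeq's strand setting, and overlapping genes can share or lose reads. IDs were matched without version to GENCODE M21 (54409 of 54446).

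The members and the gene lists were chosen with earlier results of these data known. edgeR 4.0.16 in R 4.3.3 was used on 1 fit of all 8 libraries (filterByExpr with a minimum count of 10, TMM, robust glmQLFit, glmQLFTest, 4 residual degrees of freedom). Samples of a group differed by more than sampling noise (chi-square per degree of freedom 1.43 to 2.06) and none was treated as a copy. Named genes were the members, up to 2 genes per list and knockout with the smallest p among called genes whose mean log2 CPM was 1 or more, and the 6 nearest in pattern (prior count 2); others are said to be chosen after their values were seen. Alternatives were RLE and upper-quartile scaling, other filters, DESeq2 1.42.0, limma-voom 3.58.1, fits of 2 groups, a replicate block, and each library left out. The test was tested on simulated data. Shared sequence was searched with BLAST 2.17.0.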

Additional observations from a re-analysis of the deposited data

Results flagged for a closer look

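The change in Mettl14 CKO differed from that in Mettl3 CKO for 9 members, by edgeR's test of the difference itself. Of all tested genes 12.7% were called higher for Mettl14 in this test and 20.5% lower. The difference, Mettl14 change minus Mettl3 change on the log2 scale, was 1.28 for Col1a2, 1.09 for Col3a1, 1.08 for Col5a1, 1.22 for Col5a2, 1.05 for Lox, 0.91 for Loxl1, 1.06 for Fbn1, 1.22 for Fbln2 and 0.18 for Fn1. Adjusted p-values ran from 2.38e-66 (Col1a2) to 1.01e-08 (Fn1) and 2.95e-06 (Loxl1). For all 9 genes both Mettl14 CKO libraries were above both Mettl14 Control libraries, as was so for 34.8% of all tested genes. Fn1 lost its call without the filter on low counts (0.08, adjusted p = 0.0886). Fibroblast and stem cell markers differ between the same libraries, as given in the report, and their part in these differences was not tested.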

How the results depend on the processing

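In Mettl14 CKO and between the control lines, all 10 members kept their direction and call under the 16 alternatives run. With DESeq2, Mettl14 CKO had 2476 genes called higher in place of 3921, Mettl3 CKO 2166 genes called (1624 higher and 542 lower) in place of 4552, and the difference between the knockouts 4714 in place of 7238, of which 1238 higher. With upper-quartile scaling, Mettl3 CKO had 1293 genes higher and 2771 lower, and the difference 4287 higher and 2788 lower. Without a filter, Mettl3 CKO had 5814 higher and 559 lower, and 0 members lower. Leaving out 1 library gave 599 to 1070 genes lower in Mettl3 CKO and 0 to 1 members lower, 0 being without Mettl3 CKO replicate 2. Without Mettl3 Control replicate 1, Control replicate 2, CKO replicate 1 and CKO replicate 2 it was 678, 768, 619 and 599 genes. In Mettl3 CKO, upper-quartile scaling turned Fbn1 (-0.0333), Fn1 (-6.13e-05) and Col12a1 (-0.0428). Fbn1 lost its call under 4 other settings. The difference in Col1a1 turned without a filter (-0.0694). With 1 library left out it ran from -0.0188 to 0.0322. It turned without Mettl14 Control replicate 2 (-0.0188), Mettl14 CKO replicate 2 (-0.0111), Mettl3 Control replicate 1 (-0.00513) or Mettl3 CKO replicate 2 (-0.00661). It was called with upper-quartile scaling (0.20) and with at least 1 CPM in 2 libraries (0.12). The cause was not tested. The deviations of same-numbered replicates correlated at -0.03 to 0.11. With 2 libraries per group these values cannot tell whether the numbers pair the samples. With the replicate block 8835 genes were called in Mettl14 CKO, 4620 in Mettl3 CKO, 7275 in the difference and 14754 between the controls, with 10, 10, 9 and 10 members. Low counts limit Loxl1 most.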
